A study of Mus musculus with 28 samples.

Results

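The genes described here encode the proteins of the mitochondrial ribosome. They were taken as the protein-coding genes whose symbol begins with *Mrpl* or *Mrps* followed by a digit, a rule that uses no measured value. Of 27179 genes in the annotation of the chromatin RNA counts, 21432 of them protein-coding, 77 met this rule, with 48 named for the large subunit (*Mrpl*) and 29 for the small subunit (*Mrps*). A value in each RNA-seq library was available for 76 of them among 15384 genes. *Mrpl36*, for a large-subunit protein, was the gene without one.

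Mitochondria translate the few mRNAs of their own DNA, all of which encode core subunits of the respiratory chain and of ATP synthase, on a ribosome of bacterial descent. Its ribosomal RNAs come from mitochondrial DNA, whereas every protein is encoded in the nucleus, made in the cytosol and imported. Part of these proteins have counterparts in the bacterial ribosome and part were gained later in evolution. FACT, a histone chaperone made of SSRP1 and SUPT16, opens and rebuilds nucleosomes in front of and behind polymerases.

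The study used mouse embryonic stem cells (mESCs) of the E14 line, grown in serum with LIF. They were transfected with lentiviral vectors for a scramble shRNA (control) or for a combination of shRNAs against *Ssrp1* (KD), and 48 h later puromycin at 2 µg/ml was applied for 24 h. RNA-seq of 4 control and 4 KD libraries with added spike-in RNA was used, with 2 libraries of chromatin-bound RNA from mESCs for which the labels give no treatment, and a peak list for each FACT subunit, called on 2 ChIP-seq replicates together. From the authors' table of early neural progenitors, derived from mESCs with retinoic acid and then cultured without LIF, only mean levels were taken. All cells share 1 line, the RNA averages over all cells of a culture, and fewer cells of a type and less RNA per cell cannot be told apart.

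The library-size values are read counts per gene scaled by the authors, and reads recovered over the genes ranged from 4602278 to 6680919 in control and from 9433193 to 19856032 in KD, so that low values are less precise in control. *Ssrp1* itself had values of 222.6 to 260.7 in control and 24.1 to 28.9 in KD, with a log2 fold change of -3.15 (standard error 0.069, adjusted p = 1.18e-22 in limma). *Supt16*, the other subunit, had a log2 fold change of 0.66 under this scaling and of 0.03 after quantile normalisation. Of 9 pluripotency markers, 9 passed an adjusted p below 0.01 as higher in KD, with *Tdgf1* at a log2 fold change of 2.40 and *Dppa5a* at 1.84. Their summed value was 1640 to 1762 in control and 4707 to 5193 in KD. Lower in KD were 4 of 5 neural markers (sums of 83.7 to 107 and 145 to 155, with *Tubb3* higher), 6 of 6 trophectoderm and epithelial markers (988 to 1334 and 768 to 815), 4 of 4 primitive endoderm markers (42.5 to 62.1 and 17.8 to 19.9) and 3 of 4 mesoderm and fibroblast markers (48.9 to 59.0 and 13.9 to 15.4). Over all genes, 35.4% were higher and 37.3% lower at this threshold. *Dcx*, *Foxa2*, *T* and *Mixl1* had no value, and with spike-in scaling the median of the trophectoderm and epithelial markers turned from -0.65 to 0.37. Under neither quantile normalisation nor spike-in scaling did *Pax6*, *Map2*, *Gata4*, *Sox17*, *Cdx2* or *Gata3*, all lower here, pass that threshold. *Gata6*, *Col1a1* and *Col1a2* passed under both, and *Hand1* only after quantile normalisation. The part of these shifts in the values of the mitochondrial ribosomal protein genes was not tested.

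Promoters of 7 members on which the results turn are shown first. They are RefSeq windows of GRCm38.p6, from 250 bases before to 50 bases after an annotated start, printed 5′ to 3′ on the strand of the gene. *Mrpl21* (chr19:3282792-3283091, plus strand), *Mrps24* (chr11:5707652-5707951, minus strand) and *Mrps12* (chr7:28741772-28742071, minus strand) had the highest log2 fold changes. *Mrpl34* (chr8:71464676-71464975, plus strand), *Mrpl51* (chr6:125191950-125192249, plus strand) and *Mrpl57* (chr14:57825989-57826288, plus strand) lie under or beside peaks of both FACT subunits, and *Mrps2* (chr2:28467816-28468115, plus strand) was the member that fell, though not with spike-in scaling. Capitals mark matches, on either strand, to letters taken from the consensus sites of transcription factors. ETS factors such as GABPA were searched with CCGGAAG. For YY1 the letters were ANATGGCG, where N is any base. The TATA box was read as TATAAA, and the site of NRF1, a regulator of nuclear genes for mitochondria, as a run that allows any base at the sixth position, 1 form of which is the first in capitals in *Mrpl57*.
Mrpl21: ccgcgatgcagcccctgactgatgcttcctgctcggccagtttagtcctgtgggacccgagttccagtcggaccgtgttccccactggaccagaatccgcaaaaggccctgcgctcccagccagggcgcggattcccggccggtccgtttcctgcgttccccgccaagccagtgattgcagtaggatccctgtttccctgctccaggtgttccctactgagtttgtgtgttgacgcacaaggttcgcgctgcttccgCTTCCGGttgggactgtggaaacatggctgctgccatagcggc
Mrps24: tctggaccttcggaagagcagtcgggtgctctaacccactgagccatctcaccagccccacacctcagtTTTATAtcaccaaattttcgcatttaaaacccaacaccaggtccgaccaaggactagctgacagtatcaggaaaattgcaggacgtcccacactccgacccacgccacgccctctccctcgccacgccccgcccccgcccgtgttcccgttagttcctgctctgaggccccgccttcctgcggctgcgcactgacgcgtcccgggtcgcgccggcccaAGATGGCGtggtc
Mrps12: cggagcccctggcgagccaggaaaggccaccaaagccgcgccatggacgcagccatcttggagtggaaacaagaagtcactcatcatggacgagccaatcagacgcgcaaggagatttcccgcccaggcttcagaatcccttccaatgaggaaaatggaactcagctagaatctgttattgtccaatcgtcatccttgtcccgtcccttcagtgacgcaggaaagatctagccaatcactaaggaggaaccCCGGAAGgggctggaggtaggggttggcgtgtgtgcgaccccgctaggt
Mrpl34: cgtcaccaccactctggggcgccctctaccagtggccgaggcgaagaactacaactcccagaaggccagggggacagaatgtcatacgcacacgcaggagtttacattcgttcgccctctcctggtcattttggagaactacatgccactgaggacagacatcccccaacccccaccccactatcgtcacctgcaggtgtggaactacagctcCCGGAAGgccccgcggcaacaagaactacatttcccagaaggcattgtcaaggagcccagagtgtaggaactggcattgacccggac
Mrpl51: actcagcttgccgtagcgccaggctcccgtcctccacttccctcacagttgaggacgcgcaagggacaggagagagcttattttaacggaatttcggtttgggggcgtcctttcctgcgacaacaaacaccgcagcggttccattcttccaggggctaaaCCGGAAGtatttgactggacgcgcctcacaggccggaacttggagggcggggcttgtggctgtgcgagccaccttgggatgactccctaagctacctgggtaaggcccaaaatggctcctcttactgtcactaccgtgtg
Mrpl57: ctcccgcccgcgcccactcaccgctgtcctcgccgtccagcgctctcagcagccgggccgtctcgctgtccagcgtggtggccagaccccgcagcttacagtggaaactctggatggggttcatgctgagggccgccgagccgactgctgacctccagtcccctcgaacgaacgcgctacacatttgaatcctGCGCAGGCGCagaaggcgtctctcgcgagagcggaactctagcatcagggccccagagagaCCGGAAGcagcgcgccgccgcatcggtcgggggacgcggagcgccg
Mrps2: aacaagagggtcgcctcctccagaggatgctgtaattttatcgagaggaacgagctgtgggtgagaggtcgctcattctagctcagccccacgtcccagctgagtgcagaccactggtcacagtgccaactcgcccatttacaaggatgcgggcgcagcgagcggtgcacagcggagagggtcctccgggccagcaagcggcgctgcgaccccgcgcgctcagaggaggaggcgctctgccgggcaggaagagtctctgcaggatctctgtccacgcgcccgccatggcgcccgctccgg

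In the windows above, *Mrpl21*, *Mrps12*, *Mrpl34*, *Mrpl51* and *Mrpl57* held the ETS letters, *Mrpl57* also the NRF1 letters, *Mrps24* the YY1 letters at the end of its window and TATA letters far upstream of its start, and *Mrps2* none of these. Promoter windows were found for 68 of the 77 members, 74 windows in all, and not for *Mrpl4*, *Mrpl13*, *Mrpl15*, *Mrpl19*, *Mrpl38*, *Mrpl54*, *Mrps28*, *Mrps34* and *Mrps35*. The ETS letters were in 25 of the 74 windows (33.8%), against 8.86% of all 32851 promoter windows of the same length. The NRF1 letters were in 13 (17.6% against 4.60%) and the YY1 letters in 10 (13.5% against 3.65%). The GC box GGGCGG of SP1, which can overlap the other matches and is left in lower case, was in 39 (52.7% against 35.7%), and TATAAA in 5 (6.76% against 13.6%). The member windows also had more G and C, with a median of 58.5% against 52.7% and a median of 21.5 CpG against 7.0, and the part of base composition in these shares was not tested. The 32851 windows were not limited to genes with a value in the libraries, and the part of that difference was not tested either. A match is a description of the letters and not of a factor bound there. Among members with a window, the median log2 fold change after KD was 0.75 with the ETS letters and 0.75 without, 0.80 with the NRF1 letters and 0.73 without, and 0.69 with the YY1 letters and 0.76 without.

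In control mESCs, transcripts of these genes were more abundant per length than those of most genes. The median library-size value per kb of exon was 27.1 for the members and 8.05 for all genes, and 73 of the 76 members (96.1%) lay above the 50th percentile of all genes. Their exons are short, with a median summed length of 1055 bp against 2690 bp. Levels per kb ran from 2.50 for *Mrps17*, a small-subunit protein that binds the ribosomal RNA in bacteria, to 77.8 for *Mrpl33*, one of the smallest large-subunit proteins. After *Mrps17*, the lowest levels were those of *Mrpl19* (4.87), *Mrps25* (7.54) and *Mrpl12* (9.00), the last encoding the stalk protein that recruits translation factors. Next to *Mrpl33* at the top were *Mrpl18* (75.6), which binds 5S ribosomal RNA in bacteria, *Mrpl52* (66.8) and *Mrpl30* (66.6).

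The libraries behind these levels varied by gene. In control replicates 1 to 4 *Mrps17* was at 2.04, 3.27, 2.15 and 4.51, a spread of more than the lowest value itself. *Mrpl33* had 37.4, 34.8, 34.1 and 38.7, a narrow range. *Mrpl18* (66.4 to 80.2 over its 959 bp), *Mrpl52* (23.6 to 30.5 over 412 bp) and *Mrpl30* (43.7 to 51.2 over 691 bp) cannot be put in order beyond their spread. The authors' own mean log2 expression pools all libraries of a table. The members had a median of 5.55 in the table of KD against control and 5.16 in that of neural progenitors and mESCs. All genes of the library table listed there had 4.68 and 4.65. These means are therefore not levels of control mESCs, and the RNA-seq set behind the first table is not stated.

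The first question was whether transcripts for the mitochondrial ribosome change when SSRP1 is depleted. Most of the genes rose together. The values of the 76 members summed to 2750, 2647, 2505 and 2652 over control replicates 1 to 4 and to 4603, 4483, 4608 and 4260 in KD replicates 1 to 4. Every KD library lay above every control library, with means of 2638 ± 101 and 4488 ± 163 (SD, n = 4 each), a 1.70-fold difference (two-sided exact permutation test, p = 0.0286, the smallest that 4 against 4 allows), and with spike-in scaling the sums differed 3.53-fold. As a share of all values in a library the members rose less, from 0.302 to 0.315% in control to 0.375 to 0.395% in KD, since the library-size values themselves summed to more in KD.

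Gene by gene, 69 of the 76 members (90.8%) were higher in KD at an adjusted p below 0.01, a share that was 35.4% over all 15384 genes, and 1 was lower, against 37.3% of all genes. At an absolute log2 fold change above 1 as well, 14 members (18.4%) were called higher and 0 lower, against 8.07% and 20.6% of all genes. The KD libraries lay above the control libraries without overlap for 69 members and below them for 1, against 35.8% and 37.5% of all genes. The median log2 fold change of the members was 0.75 (quartiles 0.58 and 0.94, range -0.27 to 1.56), whereas that of all genes was -0.03. All tests were those of limma across all genes, with Benjamini-Hochberg adjustment, on log2(value + 0.5), which understates the change of low genes. edgeR and DESeq2 on the recovered reads called 13 and 14 members higher and 0 lower, and in limma 1 member was lower at an unadjusted p below 0.05. The study's methods call its RNA-seq libraries biological replicates without saying whether they were separate transfections, and the p-values measure the spread between these libraries.

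**Figure D1:**
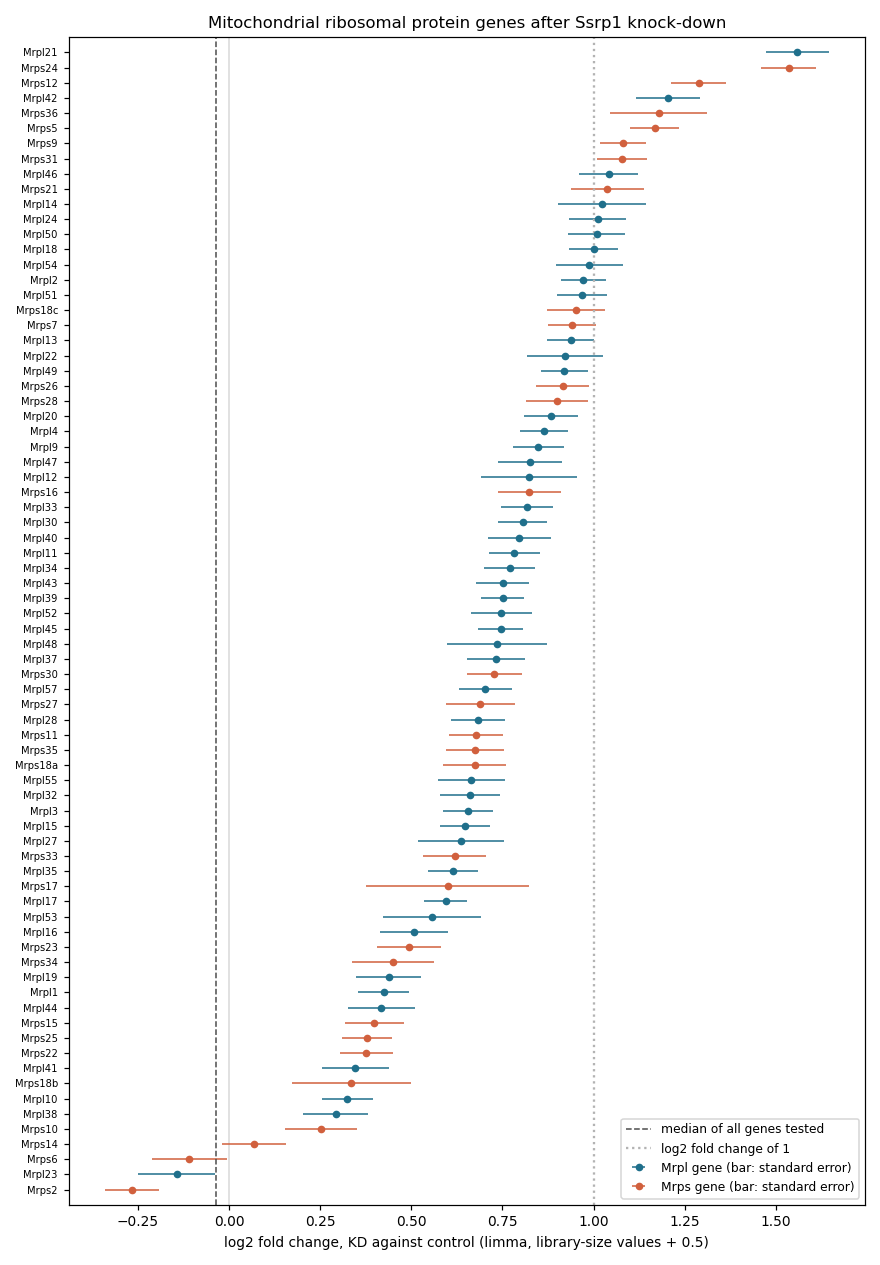
Log2 fold change of KD against control (x axis) for each of the 76 members (y axis, ordered), with standard errors from limma, *Mrpl* genes in blue and *Mrps* genes in orange. The dashed line is the median of all genes at -0.03, and 73 of the 76 points lie above 0.

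Exon length and scaling each bore on these values, and level was compared only jointly with length. Among 1844 other genes within the 10th to 90th percentile of the members in exon length and control value, 60.7% were higher at an adjusted p below 0.01, 14.6% were called higher, and the median log2 fold change was 0.42. When a loess curve over exon length was taken out of the KD values before the fit, the median of the members was 0.64 and that of all genes 0.20, and 63 members were higher and 2 lower. With the reads of every library scaled to the same total, an alternative chosen after seeing the data, the median of all genes moved to -0.45 and that of the members to 0.32, with 50 members higher, 4 lower and 2 called. With the deposited spike-in scaling both moved up, to 0.95 and 1.76, with 75 members higher and 73 called. The distance of the members from all genes was 0.78 under the library-size scaling, 0.77 with equal totals, 0.81 with spike-ins, 0.55 after quantile normalisation and 0.44 after the length correction. Under every one of the scalings between 69 and 73 members lay above the median of all genes.

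**Figure D2:**
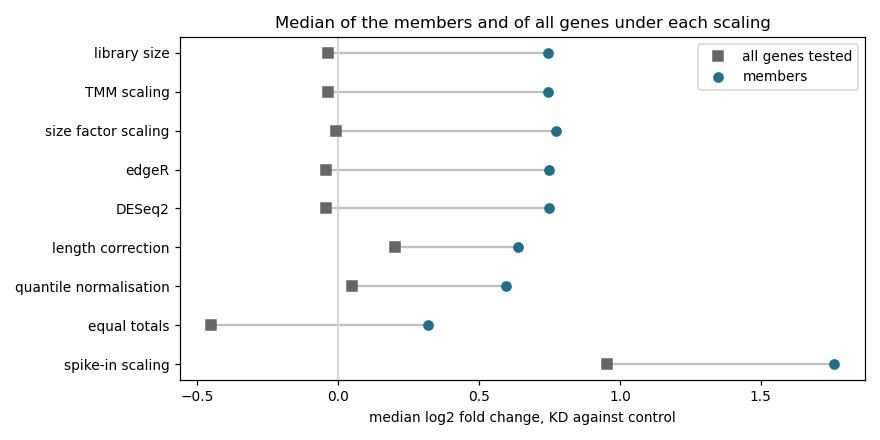
Median log2 fold change of KD against control (x axis) of the members (circles) and of all genes tested (squares) under 9 settings of scaling or tool (y axis). Both medians shift with the setting, to -0.45 and 0.32 with equal totals and to 0.95 and 1.76 with spike-ins, and the circle lies to the right of the square in each.

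The largest rises were found in proteins of both subunits. *Mrpl21* (chromosome 19), for a large-subunit protein with a bacterial counterpart, had values of 18.4, 20.1, 16.5 and 16.4 in control and of 56.4, 51.4, 56.0 and 50.2 in KD. The groups lay far apart, at a log2 fold change of 1.56 (standard error 0.086, adjusted p = 4.33e-15 in limma). Its gene overlaps *Ighmbp2* on the other strand, which had a log2 fold change of -0.11.

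*Mrps24*, the counterpart of bacterial S3 at the site where the mRNA enters, had 30.1, 26.5, 28.9 and 31.0 in control and 88.2, 84.6, 92.1 and 76.7 in KD. The lowest KD library was more than double the highest control library, with a log2 fold change of 1.53 (standard error 0.074, adjusted p = 2.66e-16 in limma). *Mrps12*, the counterpart of S12 in the decoding centre, had 24.0, 22.7, 24.4 and 22.3 in control and 58.6, 57.7, 58.1 and 56.2 in KD. Both groups were tight, with a log2 fold change of 1.29 (standard error 0.074, adjusted p = 9.87e-15 in limma).

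*Mrpl42*, a protein without a bacterial counterpart, had 36.6, 25.0, 33.7 and 35.1 in control and 75.8, 73.7, 75.4 and 75.2 in KD. Control replicate 2 was lowest, the groups did not overlap, and the change was 1.20 in log2 (standard error 0.088, adjusted p = 1.35e-12 in limma). *Mrps5*, the counterpart of S5 on the mRNA path, had 37.8, 39.4, 37.0 and 36.1 in control and 86.1, 81.3, 91.8 and 81.3 in KD, again apart, with a log2 fold change of 1.17 (standard error 0.067, adjusted p = 9.73e-15 in limma). *Mrps36* had 8.85, 13.8, 8.43 and 8.62 in control and 24.0, 23.3, 22.3 and 21.0 in KD. Control replicate 2 stood above the other control libraries but below each KD library, at a log2 fold change of 1.18 (standard error 0.133, adjusted p = 6.77e-09 in limma). The product of *Mrps36* has since been assigned to the alpha-ketoglutarate dehydrogenase complex and not to the ribosome, and RefSeq lists pseudogenes named after it with which reads could be shared.

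The other members called higher had log2 fold changes of 1.08 for *Mrps9* and *Mrps31*, 1.04 for *Mrpl46* and *Mrps21*, 1.02 for *Mrpl14*, 1.01 for *Mrpl24* and *Mrpl50*, and 1.00 for *Mrpl18*. *Mrps9* lies at the P site in bacteria and was the steadiest of these in KD, with 44.9 ± 2.08 in control and 95.5 ± 0.46 in KD (SD, n = 4 each). *Mrpl14* had the lowest level of these, with 8.21 to 10.2 in control and 17.6 to 21.8 in KD. *Mrpl18* was just above the threshold, and *Mrpl54* at 0.99 just below it, so that the 14 calls are a cut through a continuous series. Between 0.5 and 1 lay 45 members, and 14 lay between 0 and 0.5. Leaving out single libraries moved the number called between 10, without KD replicate 3, and 16, without KD replicate 4.

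**Figure D3:**
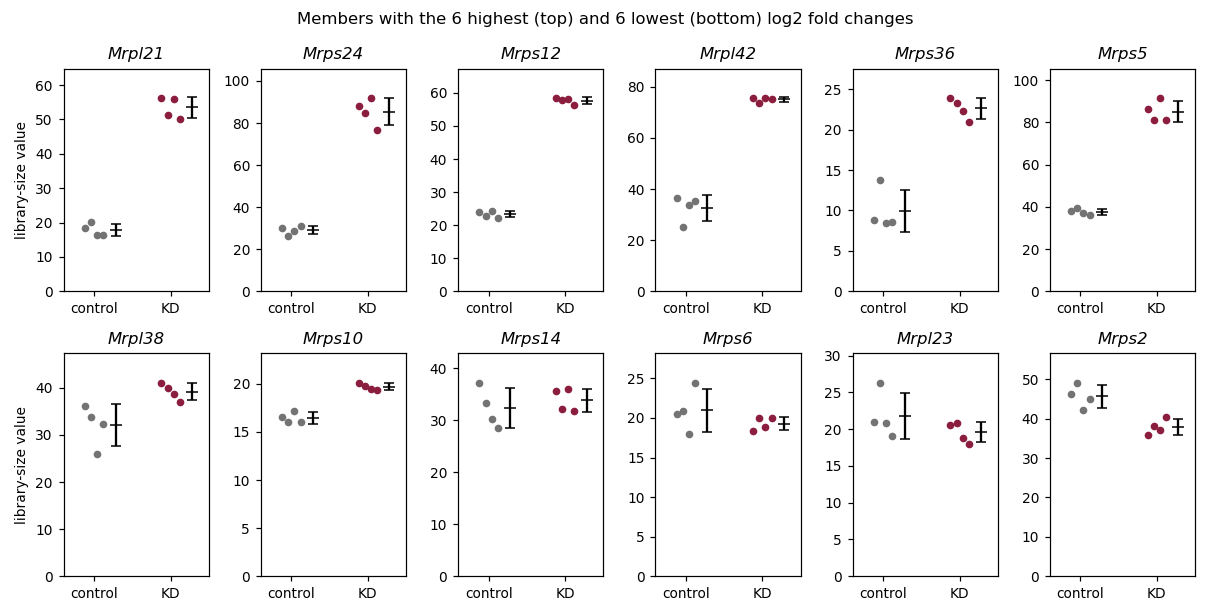
Library-size values (y axes, from 0) in the 4 control (grey) and 4 KD libraries (red) for the members with the 6 highest log2 fold changes (top row) and the 6 lowest (bottom row), with mean and SD beside the points. The groups are apart in all of the top row, whereas *Mrps14*, *Mrps6* and *Mrpl23* overlap and *Mrps2* is lower in KD under this scaling but not with spike-ins.

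A few members did not follow. *Mrps2*, the counterpart of bacterial S2 on the back of the small subunit, had 46.3, 49.2, 42.3 and 45.0 in control and 35.8, 38.0, 37.2 and 40.5 in KD. All KD libraries were below all control libraries, at a log2 fold change of -0.27 (standard error 0.075, adjusted p = 0.00207 in limma). The direction held relative to all genes, but with spike-in scaling the value was 0.75, against 0.95 for the median gene, after the length correction the adjusted p was 0.178, and without KD replicate 1 it was 0.011. The gene overlaps *1700007K13Rik* on the other strand, so that reads there cannot be assigned without strand.

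*Mrpl23*, which in bacteria sits at the exit of the peptide tunnel, had 21.0, 26.3, 20.8 and 19.0 in control and 20.5, 20.9, 18.8 and 18.03 in KD. The groups overlapped, with a log2 fold change of -0.14 (standard error 0.106, adjusted p = 0.215 in limma). It became lower after the length correction, at -0.58, and RefSeq lists a pseudogene of it. *Mrps6*, from 17.9 to 24.5 in control and from 18.3 to 20.0 in KD, also overlapped, at -0.11 (adjusted p = 0.334 in limma), and at -0.36 after the length correction (adjusted p = 0.004 in limma). *Mrps14*, the counterpart of S14, had 28.6 to 37.3 in control and 31.7 to 36.0 in KD, and a log2 fold change of 0.07 (adjusted p = 0.480 in limma), and its sign changed after quantile normalisation and with equal totals.

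*Mrps10* had a log2 fold change of 0.25 with an adjusted p of 0.022, although its control libraries (16.5 ± 0.58) and KD libraries (19.7 ± 0.36; SD, n = 4 each) did not overlap. *Mrps17* had 0.60 with an adjusted p of 0.017, at 4.10 to 5.12 in KD, and passed without control replicate 4. *Mrpl38*, a large-subunit protein without a bacterial counterpart, had 26.0 to 36.2 in control and 37.0 to 41.2 in KD, and passed at 0.29 (adjusted p = 0.004 in limma), but not without control replicate 3 (0.026), KD replicate 1 (0.019) or KD replicate 2 (0.014), nor after the length correction (0.015), after quantile normalisation (0.150) or without the trend (0.026). Of the 6 members that passed in neither direction, *Mrpl23* alone belongs to the large subunit.

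Genes of both subunits moved the same way. Of 47 *Mrpl* members, 46 were higher and 0 lower at an adjusted p below 0.01, with 7 called and a median log2 fold change of 0.75. Of 29 *Mrps* members, 23 were higher and 1 lower, with 7 called and a median of 0.68. The medians differed by 0.07, and by -0.06 after quantile normalisation, so that the order turned. The sum over *Mrpl* values divided by that over *Mrps* values was 2.12 ± 0.02 in control and 2.13 ± 0.03 in KD (SD, n = 4 each; two-sided exact permutation test, p = 0.343), while each sum rose 1.71-fold and 1.69-fold. Members with a bacterial counterpart had a median of 0.80 (39 of 45 higher), and those without one 0.73 (30 of 31 higher). The widest spread was among small-subunit proteins with a bacterial counterpart, where 5 of 16 were called higher and 4 passed in neither direction.

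The 3 relatives of bacterial S18 took different values. *Mrps18c*, which takes the place of S18 in the small subunit, had 26.8 to 29.6 in control and 48.7 to 62.3 in KD, at a log2 fold change of 0.95 (adjusted p = 2.38e-11 in limma). *Mrps18a*, which was counted here among the proteins without a bacterial counterpart and is found in the large subunit in structures, had 19.9 to 22.4 and 32.3 to 35.9, at 0.67 (adjusted p = 7.43e-08 in limma). *Mrps18b* had 6.94, 15.3, 12.6 and 9.71 in control and 14.2, 14.1, 13.8 and 12.4 in KD. Its groups overlapped, with control replicate 2 above every KD library and control replicate 3 above KD replicate 4, at a log2 fold change of 0.33 (standard error 0.163, adjusted p = 0.062). Without control replicate 2 it was 0.50 (adjusted p = 0.005 in limma). *Mrpl12*, the stalk protein, rose from 7.89 to 8.95 in control to 13.2 to 18.8 in KD, at 0.82 (adjusted p = 2.54e-06 in limma).

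Other genes of mitochondrial translation were read in lists. Over all genes, 35.4% were higher and 37.3% lower at an adjusted p below 0.01. Among the 1844 other genes in the members' range of exon length and control value, 60.7% were higher. That range was set by the members and not by the lists. Of genes outside the symbol rule, 6 for proteins in the ribosome and *Oxa1l*, for the membrane insertase that binds it, had values, and all 7 were higher at an adjusted p below 0.01, with a median log2 fold change of 0.93. *Chchd1*, a small-subunit protein, was called at 1.25 and *Ict1*, a release factor built into the large subunit, at 1.04. Of 25 genes for assembly of the ribosome and modification of its RNA, 16 were higher and 0 lower, with a median of 0.39, led by *Malsu1* (1.08), which keeps the subunits from joining early, and *Rnmtl1* (1.02), a ribosomal RNA methyltransferase. Of 11 translation factors, 8 were higher and 0 lower (median 0.53), with *Guf1* at 1.11.

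Of 20 genes for charging tRNAs, 10 were higher, against 35.4% of all genes, and 1 lower, against 37.3%, with a median of 0.20. *Wars2*, for tryptophan, was called lower at -1.03, but was at -0.042 with spike-in scaling. Of 9 genes for mitochondrial transcription, RNA stability and, with *Polg* and *Peo1*, DNA replication, 7 were higher and 0 lower (median 0.46), led by *Slirp* (1.16), which binds mitochondrial mRNAs, and *Tefm* (1.11), the elongation factor. Of 10 transcriptional regulators of mitochondrial biogenesis, 6 were higher and 2 lower (median 0.37), and *Ppargc1b*, a coactivator, was called lower at -1.69. With equal totals the medians of the assembly, tRNA charging and regulator lists turned to -0.03, -0.22 and -0.06, above the -0.45 of all genes.

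The mRNAs that this ribosome translates did not rise with it. Of 13 mRNAs of mitochondrial DNA, 1 was higher and 9 lower at an adjusted p below 0.01, against 35.4% and 37.3% of all genes. The median log2 fold change of these mRNAs was -0.49, which became 0.53 with spike-in scaling, below the 0.95 of all genes. Their summed value was 14692, 13125, 13283 and 14278 in control and 12978, 11940, 12380 and 11235 in KD. All KD libraries lay below all control libraries, at 0.876-fold (two-sided exact permutation test, p = 0.0286), whereas with spike-in scaling the sum was 1.80-fold higher (the same test, p = 0.0571). Divided by the sum over the nuclear members, it was 5.25 ± 0.19 in control and 2.70 ± 0.08 in KD (SD, n = 4 each, two-sided exact permutation test, p = 0.0286). This is a ratio within each library that no scaling of whole libraries changes.

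*ND4L*, a subunit of complex I, fell furthest, from 44.5, 64.4, 76.96 and 64.7 in control to 29.8, 12.8, 13.1 and 17.05 in KD, at -1.82 (standard error 0.171, adjusted p = 2.11e-10 in limma). The groups were apart, although its reading frame overlaps that of *ND4* and reads there can be shared, as for *ATP8* and *ATP6*. *CYTB*, of complex III, was lower at -0.88, *ND6* at -0.83 and *ND1* at -0.78. By contrast *ND3* was higher at 0.22, and *ND5* (-0.20), *COX1* (-0.13) and *COX3* (0.03) did not pass. KD replicate 1 was the KD library nearest to control for *ND2*, *ND4* and *ATP8*, and also for *ND4L*, *CYTB*, *ND6* and *ND1*. For *ND5* it was at 673, above the control libraries (557 to 614), while the other KD libraries lay below them (453 to 488).

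**Figure D4:**
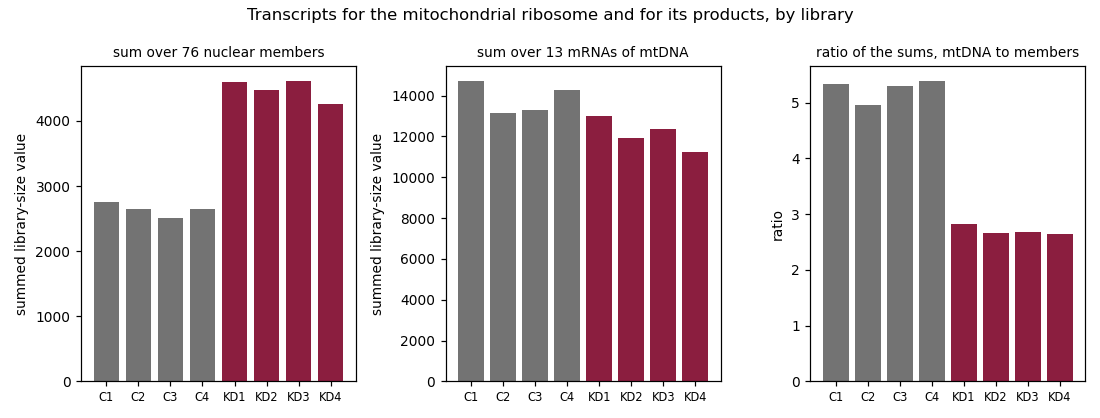
Summed library-size values (y axes, from 0) over the 76 nuclear members (left) and over the 13 mRNAs of mitochondrial DNA (middle) in control replicates 1 to 4 (C, grey) and KD replicates 1 to 4 (red), and the second sum divided by the first (right). The members sum to 2505 to 2750 in control and 4260 to 4608 in KD, and the ratio to 4.96 to 5.38 and 2.64 to 2.82.

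A further question was whether FACT sits at these genes. By the authors' nearest-gene assignment 25 of 77 members had an SSRP1 peak, which is 32.5%, and 36.0% of all genes had one. For SUPT16 it was 12 members (15.6%), against 18.6% of all genes. Within 1000 bp of an annotated TSS there was an SSRP1 peak at 22 members (28.6%, against 26.0% of all genes) and an SUPT16 peak at 13 (16.9%, against 15.6%). Among genes in the level range of the members the shares were 37.9% and 19.3% by assignment, and 27.7% and 16.5% at the TSS, so that the members were near the background throughout. The lists give positions only, which leaves no comparison between replicates, and the depth behind a missing peak is unknown.

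The TSS lay inside the peak at 14 of the 22 members with SSRP1 and at 6 of the 13 with SUPT16. The median length of these peaks was 490 bp (294 to 4214) for SSRP1 and 280 bp (210 to 2380) for SUPT16. Both subunits were found at *Mrpl34*, *Mrpl40*, *Mrpl51*, *Mrpl57*, *Mrps15* and *Mrps18b*, which is 27.3% of the members with SSRP1 and 46.2% of those with SUPT16. At *Mrpl51* the peaks nearly coincide upstream of the TSS, with SSRP1 at chr6:125191766-125192158 and SUPT16 at chr6:125191780-125192130 (mm10, positions as deposited), over the upstream part of the promoter printed above. *Mrpl34* lies in an SSRP1 peak of 1960 bp and an SUPT16 peak of 630 bp. *Mrps18b* had the longest peaks of both, 4214 and 2380 bp, which extend upstream over the start of its divergent neighbour *Ppp1r10*. *Mrps2*, the member that fell, had an SUPT16 peak of 280 bp over its TSS at chr2:28467880-28468160 and an SSRP1 peak 11116 bp downstream.

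**Figure D5:**
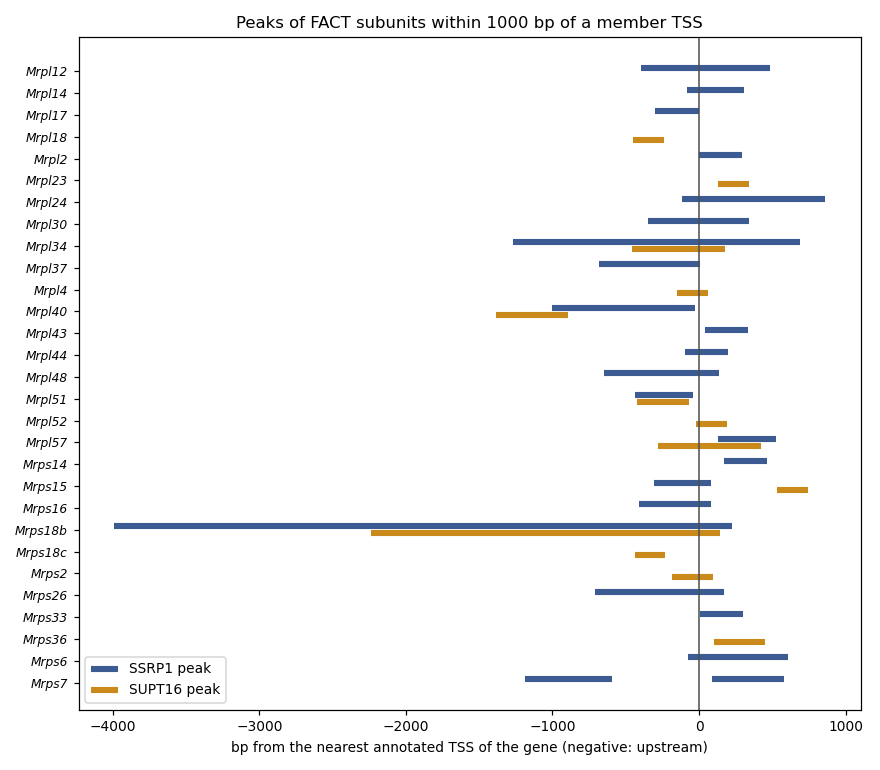
Extent of the SSRP1 (blue) and SUPT16 (orange) peaks that lie within 1000 bp of a TSS of a member, in bp from the nearest annotated TSS in the direction of transcription (x axis, negative upstream), for 29 members (y axis). Both colours appear at 6 members, and the peaks of *Mrps18b* extend furthest upstream.

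The fold changes of members with and without peaks lay close together, and their difference was not tested. The median log2 fold change was 0.76 for the 22 members with SSRP1 at the TSS, 19 of which were higher, and 0.74 for the 54 without, 50 of which were higher. With SUPT16 at the TSS it was 0.77 (10 of 13 higher), and without it 0.73 (59 of 63 higher). *Mrpl21*, *Mrps24* and *Mrps12*, with the highest fold changes, had no peak of either subunit within 1000 bp of a TSS. Of the 14 members called higher, *Mrpl14* and *Mrpl24* had an SSRP1 peak there and *Mrpl18* and *Mrps36* an SUPT16 peak. Of the 6 members with the lowest fold changes, *Mrps6* and *Mrps14* had SSRP1 there, *Mrpl23* and *Mrps2* SUPT16, and *Mrps10* and *Mrpl38* neither. Among the 76 members, 29 had a peak of either subunit there.

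Many of these genes start beside another gene. A protein-coding TSS on the other strand lay within 1000 bp upstream for 29 of the 76 members (38.2%), against 15.2% of the 13894 protein-coding genes of the library table with an annotated mRNA start. The distance between the starts was 6 to 892 bp, with a median of 92 bp. *Mrpl46* and *Mrps11*, both members, start 42 bp apart. An SSRP1 peak was at the TSS of 11 of these 29 members (37.9%) and of 11 of the other 47 (23.4%), and over all genes at 33.7% of those with such a neighbour and 26.0% of those without.

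Most members had a higher log2 fold change than their neighbour, a difference that was not tested. Of 26 neighbours outside the members with a value, 13 (50.0%) were higher, against 35.4% of all genes, 3 of the 26 lower, against 37.3%, and 10 passed in neither direction, and their median log2 fold change was 0.27, whereas that of their members was 0.87. The member had the larger value in 23 of 26 pairs. *Mrps12* is divergent from *Sars2*, for the mitochondrial seryl-tRNA synthetase, at 136 bp, and had 1.29 against 0.15. *Mrpl21* and *Ighmbp2* start 22 bp apart, with 1.56 against -0.11, and *Mrpl37* and *Cyb5rl* 24 bp apart, with 0.73 against -1.02. In the other direction, *Mrpl18* had 1.00 and *Tcp1*, for a subunit of the chaperonin CCT, 1.40, at 99 bp, and *Mrpl49* had 0.92 and *Fau*, for a cytosolic ribosomal protein, 2.09, at 192 bp. Genes of 20 members overlap another tested gene, 17 of them on the other strand, and no source used here gives whether the counting used strand. Without those 20, 10 of 56 members were called higher, and 51 were higher at an adjusted p below 0.01 alone.

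In chromatin-bound RNA the members were thinly covered. The libraries held 3441643 and 3393923 reads, of which 191237 (5.56%) and 317468 (9.35%) were on protein-coding genes, and 495 and 763 were on members. That is 0.259% (95% exact Poisson interval 0.237 to 0.283%) and 0.240% (0.224 to 0.258%) of the protein-coding reads, whereas in total RNA of control the members made up 0.341 to 0.356%. These shares have different bases, 21432 protein-coding genes in the chromatin counts and 14052 in the library values. The intervals cover counting error only. The median member had 5 reads in replicate 1 and 8 in replicate 2, and only 15 members had at least 10 in each.

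The log2 difference of chromatin to total RNA had a median of -3.44 over the members and -2.99 over all genes, and 19 members lay above the median of all genes. Over the 1844 other genes in the members' range of exon length and control value it was -3.37, close to that of the members. With TMM scaling the medians of the members and of all genes were -0.63 and -0.38. The lowest were *Mrpl33* (0 and 3 reads, -5.36), *Mrpl23* (0 and 1, -5.07), *Mrps33* (1 and 1, -4.93) and *Mrpl51* (4 and 4, -4.77). The highest were *Mrps17* (1 and 4 reads, -1.34), *Mrps24* (30 and 25, -1.45), *Mrpl53* (8 and 5, -1.55) and *Mrpl12* (6 and 5, -1.81). Of these, *Mrps24* alone had at least 10 reads in both libraries, so that the order of the others was not detectable at this depth. *Mrpl36*, with no value in total RNA, had 0 reads in both, which at this depth does not show that its RNA was absent.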

How the data were processed

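The members and gene lists were chosen with earlier results of these data known. For RNA-seq, the authors aligned reads to mm10 with STAR, counted them per gene with featureCounts and deposited the counts divided by a library-size or a spike-in factor, unit signal. Low values are whole multiples of 1 read, so reads were recovered (100.0% of values whole within 0.1 of a read). The deposited chromatin table holds raw counts per gene. Of the tables of comparisons by the authors only mean log2 expression was used, and their fold changes and p-values were not. The peak lists were called by the authors with PePr on both replicates and assigned to genes with ChIP-Enrich.

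KD was compared with control by limma 3.58.1 (R 4.3.3, trend) on log2(value + 0.5) over 15384 genes, with Benjamini-Hochberg adjustment, and genes past 1 in log2, either way, with adjusted p under 0.01 were called. Other scalings, filters, pseudocounts and the tools edgeR 4.0.16 and DESeq2 1.42.0 served as alternatives. On simulated data with 200 of 15384 genes changed in this comparison, limma recovered 100% at 4-fold and 98% at a smaller fold, with 0 false calls. In the libraries 35.4% of genes were higher and 37.3% lower at an adjusted p below 0.01. Recovery and false calls at such shares were not tested. Named were the called members of largest change and the highest and lowest by fold change, control level per kb and chromatin to total difference. Also named were members with both peaks, paralogs, and called genes of the lists. *Mrpl50*, *Mrpl54* and single mitochondrial mRNAs, neighbours or members with neighbours beyond these were named after their values were seen. Libraries of other assays and of the earlier RNA-seq set were not analysed here. The value of 1 listed gene is not reported here.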

Additional observations from a re-analysis of the deposited data

Results flagged for a closer look

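Of 72 groups of 4 libraries, the control and the KD group of each of 36 named members, 2 held a library far from the other 3, where chance alone gives about 1 in 20 such groups. Control replicate 2 had a value of 13.8 for *Mrps36*, against 8.43 to 8.85 in the other control libraries. Control replicate 4 had 47.5 for *Mrpl51*, against 56.0 to 57.0.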

How the results depend on the processing

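No member was called lower under any alternative run, and the median log2 fold change of the members, 0.75, stayed above that of all genes in each. The number called higher, 14, was 9 with a pseudocount of 2, 9 after the length correction (median 0.64), 9 after quantile normalisation (median 0.60), 2 with equal totals (median 0.32) and 73 with spike-in scaling (median 1.76). Leaving out each library gave 10 to 16 called, 68 to 70 higher and 0 to 1 lower by adjusted p alone, and medians of 0.71 to 0.76. The large minus small subunit median, 0.07, was 0.15 after the length correction and -0.062 after quantile normalisation, and 0.04 to 0.11 with single libraries left out. With the replicate number as a block, 14 were called and 69 higher, but same-numbered libraries did not deviate together (r of -0.06 to 0.02), nor did each correlate best with its own number, so that they share a number only.

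With equal totals 62 of 76 members had a log2 fold change above 0, and the sign turned for 11 members, among the named ones *Mrpl38* (-0.13), *Mrps10* (-0.17), *Mrps14* (-0.36), *Mrps25* (-0.049), *Mrps18b* (-0.080) and *Mrps15* (-0.026), and for the medians of the assembly (-0.033), tRNA charging (-0.22) and regulator (-0.059) lists. It turned for *Mrps14* after quantile normalisation (-0.042). With spike-in scaling it turned for *Mrps6* (0.89), *Mrpl23* (0.86), *Mrps2* (0.75) and the medians of the mitochondrial mRNAs (0.53) and of trophectoderm markers (0.37). Causes were not tested. Over 36 named members and 21 alternatives each, 715 values kept direction and side of the threshold.

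With peaks of at least 500 bp, members with SSRP1 fell to 11 by assignment and 11 at the TSS, and with SUPT16 to 3 and 3, since fewer peaks are counted. The chromatin to total difference, -3.44, was -2.85 with a pseudocount of 2, -3.01 over the 15 members with 10 reads in each library, -0.63 with TMM scaling, against -0.38 for all genes, and -3.59 to -3.14 with single libraries left out. Chromatin depth limits single members, and the smaller control libraries limit low values.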
